A study of Mus musculus with 16 samples.

Results

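The 38 genes described here encode the machinery that modifies and folds procollagen in the endoplasmic reticulum (ER) and carries it out of the cell. They were chosen by name, with earlier results of these data known. All 38 were among the 13733 genes measured in cells of mouse knee joints with and without joint injury. By role they comprised 4 genes of proline hydroxylation, 3 of lysine hydroxylation, 4 collagen chaperones and prolyl isomerases, 9 general ER chaperones, 3 protein disulfide isomerases, 8 genes of ER entry and vesicle traffic, 5 transcription factors and 2 genes of propeptide removal outside the cell. Each of the 38 passed the filter of at least 1 CPM (read counts scaled to the size of the library) in at least 4 libraries, and none was at 0 in any library.

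The 16 libraries came from 4 mice in each of 4 groups. WT D0 mice were uninjured C57BL/6 mice and WT D7 mice were C57BL/6 mice studied 7 days after rupture of the anterior cruciate ligament by a single tibial compression. Trem2-/- D0 and Trem2-/- D7 mice were the same with the strain C57BL/6J-Trem2em2Adiuj/J, a knockout of Trem2, a surface receptor of myeloid cells that is lost from every cell and not only from joint macrophages. All were male and were 10 weeks old at injury by the study's methods, and the sample labels give 16 weeks as the age and describe whole joints in one place and joint cells in another. The question was how injury, and the absence of Trem2, changed the secretory machinery that collagen needs.

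Procollagen chains enter the ER through the Sec61 channel as they are made. There, prolyl and lysyl residues are hydroxylated, disulfide bonds join the chains, and the helix then forms from one end while Serpinh1 (HSP47) binds it. Vesicles coated with COPII proteins carry the folded molecule to the Golgi, KDEL receptors return escaped chaperones, and proteases trim the propeptides outside the cell. When unfolded proteins build up, the unfolded protein response raises ER chaperones such as Hspa5 (BiP) through Atf6 and Xbp1, and the Perk branch acts through Atf4 and Ddit3 (CHOP). Fibroblasts, osteoblasts and chondrocytes carry the largest collagen load in a joint, and plasma cells are the other cells with a very large ER.

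Sequences that the unfolded protein response is known to use stood in some of these genes' promoters. A few are printed, picked after the changes of their genes with injury had been seen. The table of RefSeq promoters held 30 of the 38 genes, in 31 windows from 250 bases before to 50 bases after the start (build GRCm38.p6). Plod2, Fkbp10, Hyou1, Manf, Sec61a1, Kdelr2, Creb3l1 and Bmp1 had no entry. The ER stress element, CCAAT and CCACG with any 9 bases between them, was searched on both strands. Of the 30 genes, 6 had it, namely Hspa5, Hsp90b1, Calr, Canx, Dnajc3 and Pdia6, which is 20% against 0.137% of the 27025 genes in the table. The core TGACGTGG of the UPR element stood in Sec23a, Sec24d and Kdelr3, 10% of the genes against 0.714% of all. The core TTGCATCA bound by ATF4 with C/EBP proteins stood in 0 of the 30 genes, against 1.03% of all, and no match says only that these letters are not in these windows. The hypoxia core ACGTG, whose letters also lie inside the UPR element core, stood in 16 of the 30 genes (53.3%) against 21.8% of all. These matches are descriptions of letters and not binding sites. The 250 bases before the start of 5 genes follow, 5′ to 3′ on the gene's own strand, with the letters of the ER stress element (the first 3 genes) or the UPR element core (the last 2) in capitals on either strand.
Hspa5 (chr2:34771840-34772089, plus strand): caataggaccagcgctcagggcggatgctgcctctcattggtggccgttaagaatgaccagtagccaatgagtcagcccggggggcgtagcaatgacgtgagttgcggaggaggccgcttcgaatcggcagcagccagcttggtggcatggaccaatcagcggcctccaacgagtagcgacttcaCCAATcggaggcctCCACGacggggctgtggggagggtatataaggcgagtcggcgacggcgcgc
Hsp90b1 (chr10:86705445-86705694, minus strand): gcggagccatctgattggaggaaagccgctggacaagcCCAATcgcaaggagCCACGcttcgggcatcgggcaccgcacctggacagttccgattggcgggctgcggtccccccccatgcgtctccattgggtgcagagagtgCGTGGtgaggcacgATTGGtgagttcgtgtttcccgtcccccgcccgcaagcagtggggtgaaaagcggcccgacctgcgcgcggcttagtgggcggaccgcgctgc
Calr (chr8:84846932-84847181, minus strand): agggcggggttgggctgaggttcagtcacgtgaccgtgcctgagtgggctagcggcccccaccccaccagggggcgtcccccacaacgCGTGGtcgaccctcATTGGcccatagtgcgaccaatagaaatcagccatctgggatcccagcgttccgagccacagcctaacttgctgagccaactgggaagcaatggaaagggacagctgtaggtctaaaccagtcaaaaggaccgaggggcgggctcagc
Sec24d (chr3:123267246-123267495, plus strand): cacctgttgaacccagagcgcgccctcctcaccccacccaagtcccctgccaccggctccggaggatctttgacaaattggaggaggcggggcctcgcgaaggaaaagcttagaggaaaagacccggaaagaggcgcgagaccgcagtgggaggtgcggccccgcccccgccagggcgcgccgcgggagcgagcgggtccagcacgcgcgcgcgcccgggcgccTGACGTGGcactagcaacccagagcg
Kdelr3 (chr15:79516158-79516407, plus strand): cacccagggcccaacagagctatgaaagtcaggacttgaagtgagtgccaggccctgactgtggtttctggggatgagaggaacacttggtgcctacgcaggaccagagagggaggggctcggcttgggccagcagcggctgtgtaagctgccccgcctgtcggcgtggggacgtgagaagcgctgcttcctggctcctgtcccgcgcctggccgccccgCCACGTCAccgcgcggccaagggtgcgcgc
Of these genes, Hspa5 did not pass the test for injury in either genotype, Hsp90b1 and Calr rose by less than 1 on the log2 scale, and Sec24d and Kdelr3 rose by more. Among genes not printed, Pdia6 has the ER stress element and rose by less than 1 in WT but by more in Trem2-/- mice. Canx and Dnajc3, which have it too, rose by less than 1 in both genotypes. Sec23a, with the UPR element core, rose by more than 1 in both. Any link of the letters to the changes was not tested.

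Reads on listed genes ranged from 11567073 to 32867818 per library, so a gene with 3 reads had 0.101 to 0.25 CPM, a limit that covers counting error only. Trem2 itself was 2.51, 4.88, 5.26 and 5.61 CPM in WT D0 mice and 15.1, 22.5, 18.9 and 10.7 CPM in WT D7 mice. It was 1.88, 0.948, 2.68 and 1.7 CPM in Trem2-/- D0 mice and 4.13, 4.69, 3.42 and 4.84 CPM in Trem2-/- D7 mice, so the knockout was lower at D7 without overlap and overlapped WT at D0. Within WT D0, replicate 4 held the highest value of its group for 33 of the 38 genes and replicate 2 the lowest for 28. The summed levels of cell type markers also differed between the libraries. The summed CPM of 12 markers of fibroblasts and other collagen-producing cells, such as Col1a1 and Dcn, was 22904, 6995, 12799 and 57097 in WT D0 replicates 1 to 4 and 86234 to 129919 at WT D7. It was 5982 to 12650 at Trem2-/- D0 and 115538 to 158108 at Trem2-/- D7. Col1a1, which averaged 39174 CPM at WT D7, and other collagen genes are part of this sum. The sum therefore counts collagen expression itself and not cell number alone. Markers of synovial lining and cartilage (7 genes) summed to 6079 to 18460 at WT D0 and 37296 to 79499 at WT D7, and to 3398 to 10891 and 33579 to 54243 in Trem2-/- mice. Of these 7, 6 rose in WT and 7 in Trem2-/- mice (adjusted p under 0.05 in limma), against 15.9% and 26.0% of all genes. The sum of 7 osteoblast markers was 472 to 1742 at WT D0 and 1956 to 4310 at WT D7, and 559 to 1043 and 1849 to 3585 in Trem2-/- mice. Of these 7, 4 rose in WT and 5 in Trem2-/- mice, against the same shares of all genes. The sum of 6 pan-leukocyte markers ran the other way, from 2678 to 5222 (WT D0) to 1514 to 3335 (WT D7), and from 3322 to 5728 (Trem2-/- D0) to 1197 to 1501 (Trem2-/- D7). These are bulk samples, so fewer cells of a type and less RNA per cell cannot be told apart.

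Injury raised most of the secretory machinery in both genotypes. By role, the median change was 2.21 in both genotypes for proline hydroxylation, 1.63 in WT and 1.96 in Trem2-/- mice for lysine hydroxylation, 1.69 and 2.34 for the collagen chaperones, and 1.22 and 1.75 for ER entry and traffic. No test compared the roles, and their ranges overlapped: the traffic gene Kdelr3 (2.34 in WT) rose by more than P4hb (0.91) and Ppib (0.82). Between D0 and D7 in WT mice, 31 of the 38 genes rose and 1, Ddit3, fell (limma, Benjamini-Hochberg adjusted p under 0.05 over all 13173 genes tested). Among all genes tested, 15.9% rose and 12.6% fell in that comparison. In Trem2-/- mice, 31 genes rose and 1 fell, against 26.0% and 27.2% of all genes. The counts by role given below stand against these same shares. The same 6 genes passed in neither genotype: Hspa5, Hyou1, Sdf2l1, Sec61b, Xbp1 and Atf4. The median change of the 38 genes was 0.98 on the log2 scale in WT and 1.34 in Trem2-/- mice, while the median of all genes was -0.04 in both. Every WT D7 mouse was above every WT D0 mouse for 30 genes and below for 1, against 12.9% and 9.34% of all genes. For Trem2-/- mice these numbers were 32 and 2, against 26.1% and 26.3%. Without WT D0 replicates 2 and 4, a comparison chosen after the data were seen, 29 genes passed in WT, all higher. The marker sums of fibroblasts and other collagen-producing cells, of synovial lining and cartilage and of osteoblasts moved with these changes. The pan-leukocyte sum moved against them, and all 10 neutrophil and all 8 B cell markers fell in both genotypes. Of 9 monocyte and macrophage markers, 7 rose and 0 fell in WT, and 6 rose and 2 fell in Trem2-/- mice. Their summed CPM overlapped by day in both genotypes. The part of these cell types in the result was not tested.

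**Figure D1:**
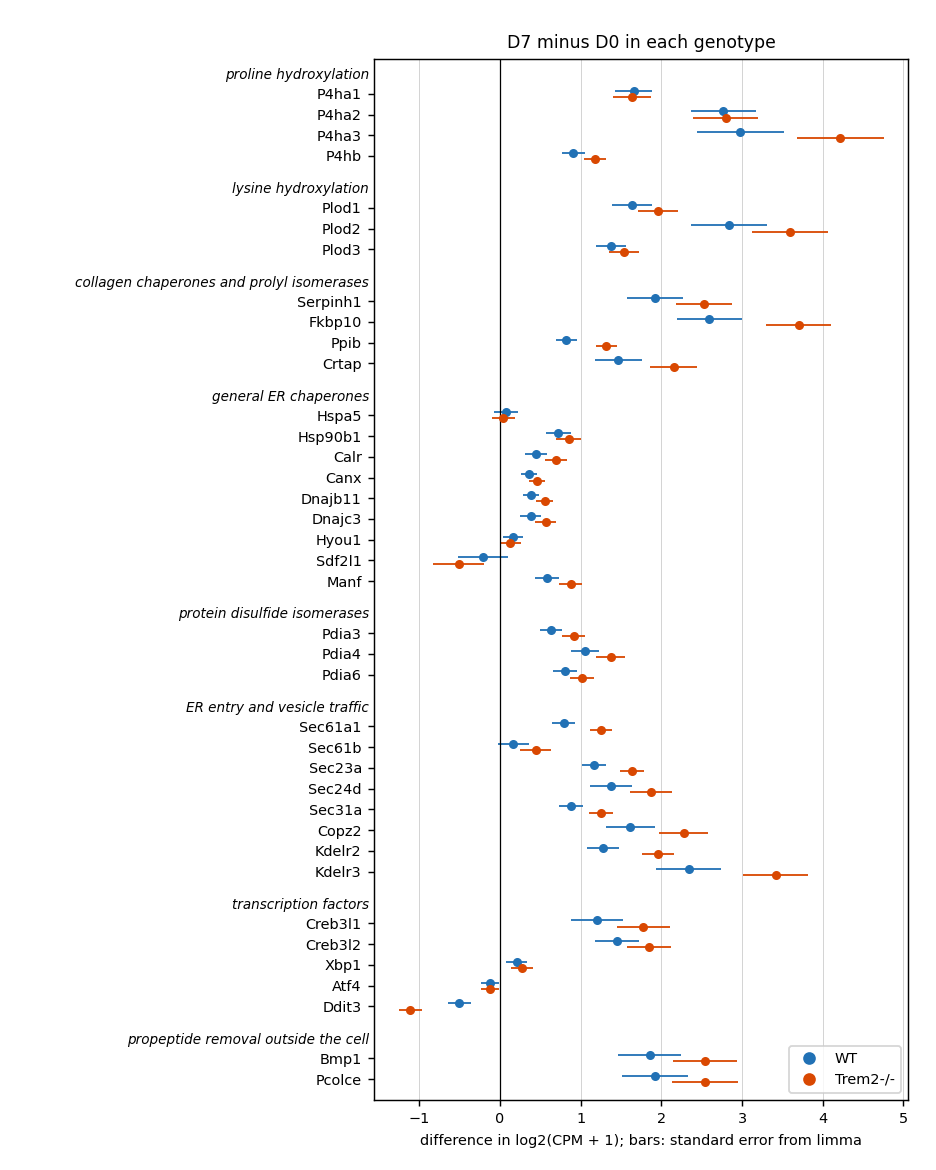
Change from D0 to D7 for each of the 38 genes, grouped by role, as the difference in log2(CPM + 1) with the standard error from limma (4 mice a group). WT is blue and Trem2-/- orange. The points of the hydroxylation groups and of the collagen chaperones and prolyl isomerases lie between 0.82 and 4.22. Those of Hspa5, Hyou1, Sdf2l1, Xbp1 and Atf4 lie near or below 0.3, and Ddit3 lies below 0.

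Prolyl 4-hydroxylase gives collagen the hydroxyproline that its helix needs, and its tetramer pairs an alpha subunit (P4ha1, P4ha2 or P4ha3) with P4hb, which is also a disulfide isomerase. All 4 genes rose in both genotypes. P4ha1 (chr10:59323296-59373304) was 139, 66.4, 88.3 and 192 CPM at WT D0 and 353, 328, 336 and 404 CPM at WT D7. In Trem2-/- mice it went from 126, 143, 115 and 110 to 360, 355, 434 and 386 CPM, and D7 mice were above all D0 mice in both genotypes. The change was 1.65 ± 0.23 (log2, SE) in WT, adjusted p = 0.00064, and 1.63 ± 0.23 in Trem2-/- mice, adjusted p = 6.6e-05. P4ha2 (chr11:54100095-54131665) was 46.9, 12.6, 24.9 and 101 CPM at WT D0 and 270, 232, 231 and 251 CPM at WT D7. Trem2-/- mice had 31, 39.3, 38.1 and 31.7 CPM of P4ha2 at D0 and 258, 223, 286 and 231 CPM at D7. WT D0 mice were widely spread, yet the highest of them remained below every D7 mouse. Its changes were nearly equal, 2.77 ± 0.40 in WT (adjusted p = 0.00072) and 2.80 ± 0.40 in Trem2-/- mice (adjusted p = 6.7e-05).

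P4ha3 (chr7:100285520-100319699) showed the largest change of the 38 genes. It was 8.49, 2.87, 5.85 and 43.4 CPM at WT D0, with replicate 4 far above the others, and 101, 116, 53.4 and 65.3 CPM at WT D7. Trem2-/- mice went from 9.48, 4.42, 3.34 and 4.09 CPM to 139, 110, 103 and 92.6 CPM. The groups did not overlap by day, and the change was 2.98 ± 0.54 in WT (adjusted p = 0.0018) and 4.22 ± 0.54 in Trem2-/- mice (adjusted p = 3.3e-05). P4hb (chr11:120560298-120573253), the shared beta subunit, was far more abundant and changed least of the 4. It was 418, 357, 406 and 596 CPM at WT D0 and 797, 864, 813 and 801 CPM at WT D7, a change of 0.91 ± 0.14 (adjusted p = 9e-04). The Trem2-/- values went from 420, 411, 455 and 362 CPM to 946, 889, 981 and 905 CPM, a change of 1.18 ± 0.14 (adjusted p = 2.2e-05). The spread within each D7 group was small beside the gap to D0.

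Lysyl hydroxylases prepare collagen for crosslinking, with Plod1 and Plod3 acting on the helical part and Plod2 on the telopeptides at its ends, and Plod3 also adds sugars. All 3 rose in both genotypes, Plod2 most. Plod2 (chr9:92542223-92608428) was 141, 28.5, 81 and 329 CPM at WT D0 and 824, 705, 660 and 779 CPM at WT D7. It was 57.2, 69.9, 66.9 and 61.5 CPM at Trem2-/- D0, a narrow range, and 851, 758, 868 and 660 CPM at Trem2-/- D7. Even WT D0 replicate 4 stayed below every D7 mouse. Plod2 rose by 2.84 ± 0.47 in WT (adjusted p = 0.0012) and 3.59 ± 0.47 in Trem2-/- mice (adjusted p = 3.7e-05). Plod1 (chr4:147909753-147936767) went from 153, 59.5, 85.5 and 153 CPM to 316, 344, 311 and 333 CPM in WT mice, a change of 1.63 ± 0.25 (adjusted p = 0.00081). Without Trem2 it went from 69.4, 114, 97.4 and 120 CPM to 398, 379, 406 and 353 CPM, a change of 1.96 ± 0.25 (adjusted p = 3e-05). Plod3 (chr5:136987019-136996648) was 113, 86.3, 106 and 184 CPM at WT D0 and 310, 344, 281 and 291 CPM at WT D7. It was 112, 100, 158 and 107 CPM at Trem2-/- D0 and 350, 338, 337 and 342 CPM at Trem2-/- D7. Days did not overlap for either gene, and Plod3 changed by 1.37 ± 0.19 (adjusted p = 0.00056) and 1.53 ± 0.19 (adjusted p = 2.5e-05). Of the exon bases of Plod3, 11.7% overlap Znhit1, which runs on the other strand, and no source used here says whether counting took account of strand.

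The collagen chaperones bind the procollagen helix or speed its folding at proline bonds. Serpinh1 (chr7:99345376-99353239), the collagen-specific chaperone HSP47, was 508, 155, 289 and 778 CPM at WT D0 and 1344, 1693, 1184 and 1363 CPM at WT D7. It was 341, 371, 224 and 319 CPM at Trem2-/- D0 and 1848, 1710, 1860 and 1715 CPM at Trem2-/- D7. Every D7 mouse was above every D0 mouse, with changes of 1.92 ± 0.35 in WT (adjusted p = 0.0019) and 2.53 ± 0.35 in Trem2-/- mice (adjusted p = 5.1e-05). Fkbp10 (chr11:100415697-100424824), a prolyl isomerase that works with Serpinh1 and Plod2, went from 72.4, 23.7, 45.9 and 178 CPM to 392, 412, 323 and 384 CPM in WT mice. In Trem2-/- mice it went from 29.1, 36.8, 22.2 and 43.9 CPM to 472, 428, 444 and 375 CPM. Among these chaperones it rose most, by 2.59 ± 0.41 in WT (adjusted p = 0.00094) and 3.70 ± 0.41 in Trem2-/- mice (adjusted p = 1.7e-05).

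Ppib and Crtap are partners in the complex that 3-hydroxylates one proline of collagen I. Crtap (chr9:114375134-114390675) was 84.5, 31.7, 50.5 and 111 CPM at WT D0 and 167, 189, 157 and 186 CPM at WT D7. It was 40.5, 49.2, 33.3 and 65.2 CPM at Trem2-/- D0 and 216, 204, 223 and 184 CPM at Trem2-/- D7. These are changes of 1.46 ± 0.29 (adjusted p = 0.003) and 2.15 ± 0.29 (adjusted p = 4.4e-05), without overlap by day. Ppib (chr9:66060222-66066623) changed less, from 61.2, 47.3, 58 and 78.6 CPM to 96.2, 126, 108 and 102 CPM in WT mice. Trem2-/- mice had 58.5, 51.5, 61.3 and 53.9 CPM of Ppib at D0 and 150, 132, 142 and 143 CPM at D7. The changes were 0.82 ± 0.13 (adjusted p = 0.00094) and 1.32 ± 0.13 (adjusted p = 1e-05). The level of Ppib is uncertain: 4.57% of its 75-base stretches occur in transcripts of other genes and 25% of its exon bases overlap Snx22, which runs on the other strand.

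**Figure D2:**
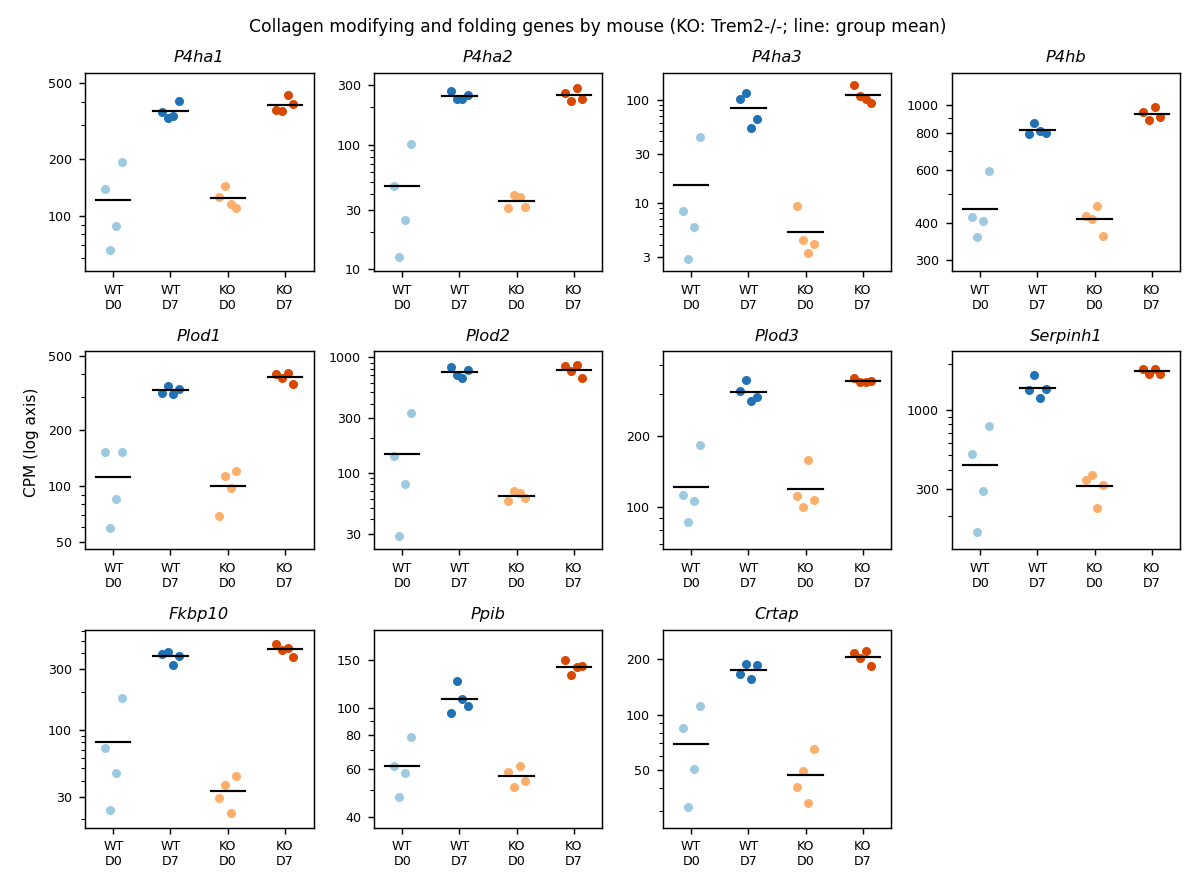
Values in every mouse of the 11 collagen modifying and folding genes, in CPM on a log axis, with a line at each group's mean (KO is Trem2-/-). The WT D0 mice are the most spread, and for each gene all D7 mice lie above all D0 mice of their genotype.

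Within families the rise was uneven, though no difference in a share passed after adjustment. Shares were computed from CPM per kilobase of exon within each library, so they do not depend on library scaling, and were added after the values had been seen. Plod2 made up 35.6%, 15.9%, 29.4% and 49.1% of the 3 lysyl hydroxylases in WT D0 mice and 57%, 50.7%, 53.1% and 56% in WT D7 mice. In Trem2-/- mice its share was 20.1% to 24.9% at D0 and 48.9% to 54.5% at D7. Its share was thus higher in every D7 mouse of each genotype, by 21.7 percentage points in WT and 29.8 in Trem2-/- mice. The mean share of Plod3 was 42.5% at WT D0 and 26.7% at WT D7, and 49.6% and 27.3% in Trem2-/- mice. Among the alpha subunits, P4ha1 averaged 75.2% at WT D0 and 56.7% at WT D7, where the groups overlapped (exact permutation p = 0.0571, n = 4 a group). The Trem2-/- values went from 79.3% to 81.9% at D0 to 50.5% to 58.6% at D7. P4ha3 held 3.04% to 7.83% of the subunits at Trem2-/- D0 and 17.9% to 25.6% at Trem2-/- D7, and in WT mice 4.8% to 18.1% at D0, the highest being replicate 4, and 12.6% to 24% at D7. The KDEL receptor Kdelr3 took 11.4% of the 3 receptors at WT D0 and 22.3% at WT D7 on average, and 8.42% and 24.2% in Trem2-/- mice. For Plod2, Plod3, P4ha2 and Kdelr3 in both genotypes, the exact two-sided permutation p was 0.0286, the smallest that 4 against 4 mice allow. Over the 36 comparisons of shares tested, none passed after Benjamini-Hochberg adjustment, which gave 0.0735 for each of these. As the exact p cannot go below 0.0286, passing would have needed most of the 36 tests to reach that value. The adjusted result therefore cannot decide for or against a change in any one share.

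**Figure D3:**
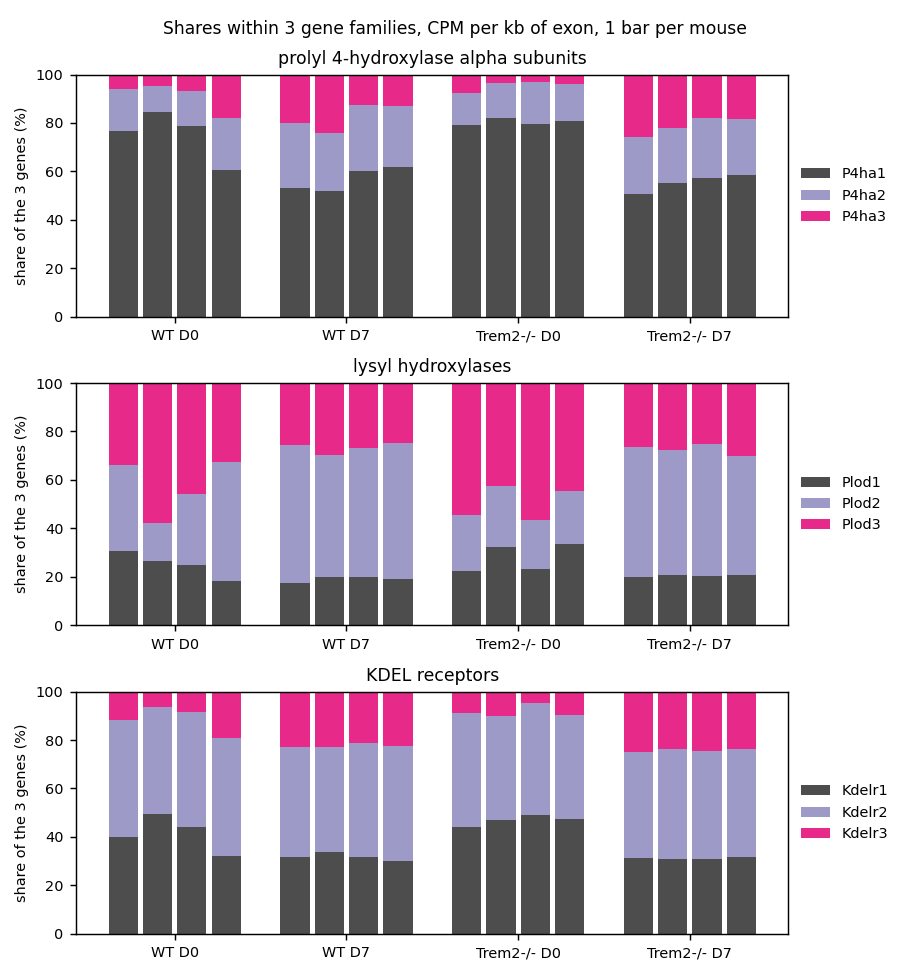
Make-up of 3 gene families in each mouse, as stacked shares (percent) of CPM per kilobase of exon, 4 bars a group. Within each genotype the Plod2 band is wider in every D7 bar than in any D0 bar, and WT D0 replicate 4 (49.1%) comes closest to D7.

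Of the 9 general ER chaperones, which serve every secreted protein, 6 rose in each genotype, against 15.9% of all genes in WT and 26.0% in Trem2-/- mice. The median change over all 9 was 0.38 in WT and 0.56 in Trem2-/- mice. Hsp90b1 (chr10:86690209-86705509), the ER form of HSP90, rose most in WT mice, from 665, 549, 545 and 776 CPM to 1145, 1077, 946 and 982 CPM. Without Trem2 it went from 712, 653, 787 and 510 CPM to 1155, 1149, 1248 and 1189 CPM. The changes were 0.72 ± 0.15 (adjusted p = 0.0045) and 0.85 ± 0.15 (adjusted p = 0.00037). Manf (chr9:106838312-106891979), a secreted ER stress protein, was 72.5, 64.1, 72.6 and 93.5 CPM at WT D0 and 112, 140, 104 and 98.1 CPM at WT D7. It was 90.1, 70.8, 91.9 and 63.6 CPM at Trem2-/- D0 and 153, 140, 153 and 131 CPM at Trem2-/- D7. The days were separate but close in WT, with a change of 0.58 ± 0.15 (adjusted p = 0.01), and wider apart in Trem2-/- mice at 0.87 ± 0.15 (adjusted p = 2e-04). Calr and Canx, the lectin chaperones of glycoproteins, rose by 0.45 ± 0.14 and 0.36 ± 0.10 in WT and by 0.70 ± 0.14 and 0.46 ± 0.10 in Trem2-/- mice. The co-chaperones Dnajb11 and Dnajc3 both rose by 0.38 in WT and by 0.56 and 0.57 in Trem2-/- mice. In WT mice, Calr, Canx and Dnajc3 did not pass under every alternative, and their adjusted p reached 0.084, 0.081 and 0.133.

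Hspa5 (chr2:34771970-34777547), the BiP chaperone and the usual readout of the unfolded protein response, is described outside the rule for named genes because its values were seen to be level. It was 1855, 1612, 1533 and 1811 CPM at WT D0 and 1703, 1736, 1817 and 1874 CPM at WT D7. Trem2-/- mice had 1926, 1858, 2326 and 1811 CPM at D0 and 1994, 1925, 2130 and 2063 CPM at D7. Days overlapped in both genotypes, and the changes were 0.07 ± 0.15 (adjusted p = 0.75) and 0.04 ± 0.15 (adjusted p = 0.83). Changes this small depend on how libraries are scaled. The CPM of all listed genes summed to 826216 to 957113 per library at D0 and 1.04e+06 to 1.17e+06 at D7. Hyou1, a large ER HSP70 relative, changed by 0.16 ± 0.13 and 0.13 ± 0.13, and Sdf2l1, a BiP partner of low level, by -0.21 ± 0.31 and -0.52 ± 0.31, and neither passed. Per kilobase of exon, Hspa5 averaged 403 CPM at WT D0 against 177 for Serpinh1, and at WT D7 421 against 571. In Trem2-/- mice these levels were 468 against 128 at D0 and 480 against 730 at D7. Serpinh1 thus passed Hspa5 at D7 in both genotypes only in mean level per length. Without division by length Hspa5 stayed higher, at 1782 against 1396 CPM at WT D7 and 2028 against 1783 CPM at Trem2-/- D7.

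The protein disulfide isomerases, which form and shuffle disulfide bonds, all rose in both genotypes, with a median change of 0.81 in WT and 1.02 in Trem2-/- mice. Pdia4 (chr6:47796141-47813430) was 84.2, 68.7, 63.9 and 105 CPM at WT D0 and 183, 208, 135 and 143 CPM at WT D7. It was 84.9, 77.1, 95.4 and 59.6 CPM at Trem2-/- D0 and 211, 192, 224 and 189 CPM at Trem2-/- D7, and D7 was above D0 without overlap. The changes were 1.05 ± 0.18 (adjusted p = 0.0013) and 1.37 ± 0.18 (adjusted p = 3.5e-05). Pdia6 (chr12:17266545-17284770) went from 163, 131, 141 and 191 CPM to 277, 332, 244 and 241 CPM in WT mice. In Trem2-/- mice it went from 182, 166, 195 and 122 CPM to 333, 317, 345 and 334 CPM. These were changes of 0.81 ± 0.15 (adjusted p = 0.0025) and 1.02 ± 0.15 (adjusted p = 8.9e-05). Pdia3, the isomerase that works with Calr and Canx, rose by 0.63 ± 0.14 in WT and 0.91 ± 0.14 in Trem2-/- mice.

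Of the 8 genes of ER entry and vesicle traffic, 7 rose in each genotype, against 15.9% of all genes in WT and 26.0% in Trem2-/- mice. Sec61b passed in neither. The inner COPII coat gene Sec23a (chr12:58958383-59012017) was 50.6, 34.7, 37.9 and 64.4 CPM at WT D0 and 112, 107, 88.3 and 107 CPM at WT D7. It was 38.2, 36.3, 35.8 and 37.7 CPM at Trem2-/- D0, a narrow range, and 124, 116, 125 and 104 CPM at Trem2-/- D7. The change was 1.17 ± 0.15 (adjusted p = 5e-04) in WT and 1.63 ± 0.15 (adjusted p = 8.1e-06) in Trem2-/- mice. Kdelr2 (chr5:143403838-143421901), a receptor that returns chaperones to the ER, went from 102, 59.2, 78.2 and 153 CPM to 214, 249, 201 and 236 CPM in WT mice. The Trem2-/- values went from 75.2, 63.7, 66.3 and 72 CPM to 280, 272, 281 and 253 CPM. Its groups by day were separate, with changes of 1.28 ± 0.20 (adjusted p = 0.00094) and 1.96 ± 0.20 (adjusted p = 1.2e-05). Sec61a1 (chr6:88503579-88518905), the pore of the translocon, was 166, 157, 182 and 258 CPM at WT D0 and 309, 391, 281 and 323 CPM at WT D7. It was 178, 149, 170 and 165 CPM at Trem2-/- D0 and 396, 403, 407 and 371 CPM at Trem2-/- D7. It rose by 0.79 ± 0.14 (adjusted p = 0.0018) and 1.2501 ± 0.14 (adjusted p = 1.8e-05).

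Other traffic genes rose in the same direction. Sec24d, the COPII cargo adaptor required for procollagen export, rose by 1.37 ± 0.26 in WT and 1.87 ± 0.26 in Trem2-/- mice. Sec31a, of the outer COPII coat, rose by 0.88 ± 0.15 and 1.2494 ± 0.15. Copz2, a COPI subunit, rose by 1.61 ± 0.30 and 2.28 ± 0.30. Kdelr3, another KDEL receptor, rose by 2.34 ± 0.40 and 3.42 ± 0.40, the largest rise in this group. Sec61b, a small translocon subunit, changed by 0.16 ± 0.19 in WT and 0.44 ± 0.19 in Trem2-/- mice (adjusted p = 0.065), where the days did not overlap, and 10.1% of its 75-base stretches occur in transcripts of other genes.

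The transcription factors went separate ways. Creb3l1 (OASIS) and Creb3l2 (BBF2H7) are ER-anchored factors known to drive collagen secretion genes in bone and cartilage. Creb3l2 (chr6:37327255-37442146) was 55, 21.8, 32.3 and 73.4 CPM at WT D0 and 119, 101, 102 and 140 CPM at WT D7. It was 26.3, 32.9, 25.8 and 40.3 CPM at Trem2-/- D0 and 110, 115, 124 and 104 CPM at Trem2-/- D7. Every D7 mouse was above the D0 mice, and the changes were 1.45 ± 0.27 (adjusted p = 0.0024) and 1.84 ± 0.27 (adjusted p = 8.4e-05). Creb3l1 (chr2:91982328-92024502) was 64.4, 21.7, 41.7 and 89.1 CPM at WT D0 and 110, 111, 86.6 and 147 CPM at WT D7. Trem2-/- mice had 45.9, 34.9, 24 and 40.5 CPM of Creb3l1 at D0 and 137, 111, 145 and 106 CPM at D7. WT D0 replicate 4 reached above WT D7 replicate 3, so the WT groups overlapped. Creb3l1 rose by 1.204 ± 0.32 (adjusted p = 0.014) and 1.78 ± 0.32 (adjusted p = 0.00038), and in WT it did not pass when the fit held WT mice alone (adjusted p = 0.061).

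Ddit3 (chr10:127290829-127293753), the CHOP factor of the Perk branch, moved the other way. It was 49.5, 57, 52.1 and 47.5 CPM at WT D0 and 31.5, 30.7, 45.4 and 37.9 CPM at WT D7. It was 66.3, 56.7, 90.9 and 64.7 CPM at Trem2-/- D0 and 30.2, 28.6, 34.3 and 31.7 CPM at Trem2-/- D7. D7 mice were below D0 mice without overlap, and the log2 change was -0.51 ± 0.14 in WT (adjusted p = 0.018) and -1.11 ± 0.14 in Trem2-/- mice (adjusted p = 3.5e-05). The WT fall did not pass without WT D0 replicate 2, WT D7 replicate 1 or WT D7 replicate 2, where the adjusted p was 0.055, 0.057 and 0.054, or without both WT D0 replicates 2 and 4 (adjusted p = 0.074). Xbp1, whose product drives ER expansion once its RNA is spliced, changed by 0.20 ± 0.13 (adjusted p = 0.26) and 0.27 ± 0.13 (adjusted p = 0.10). These values count all Xbp1 reads and do not separate the spliced form. Atf4, which is regulated mainly through translation, changed by -0.12 ± 0.11 (adjusted p = 0.43) and -0.13 ± 0.11 (adjusted p = 0.36), although each Trem2-/- D7 value, 291 to 332 CPM, lay just below the D0 values of 334 to 367 CPM.

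**Figure D4:**
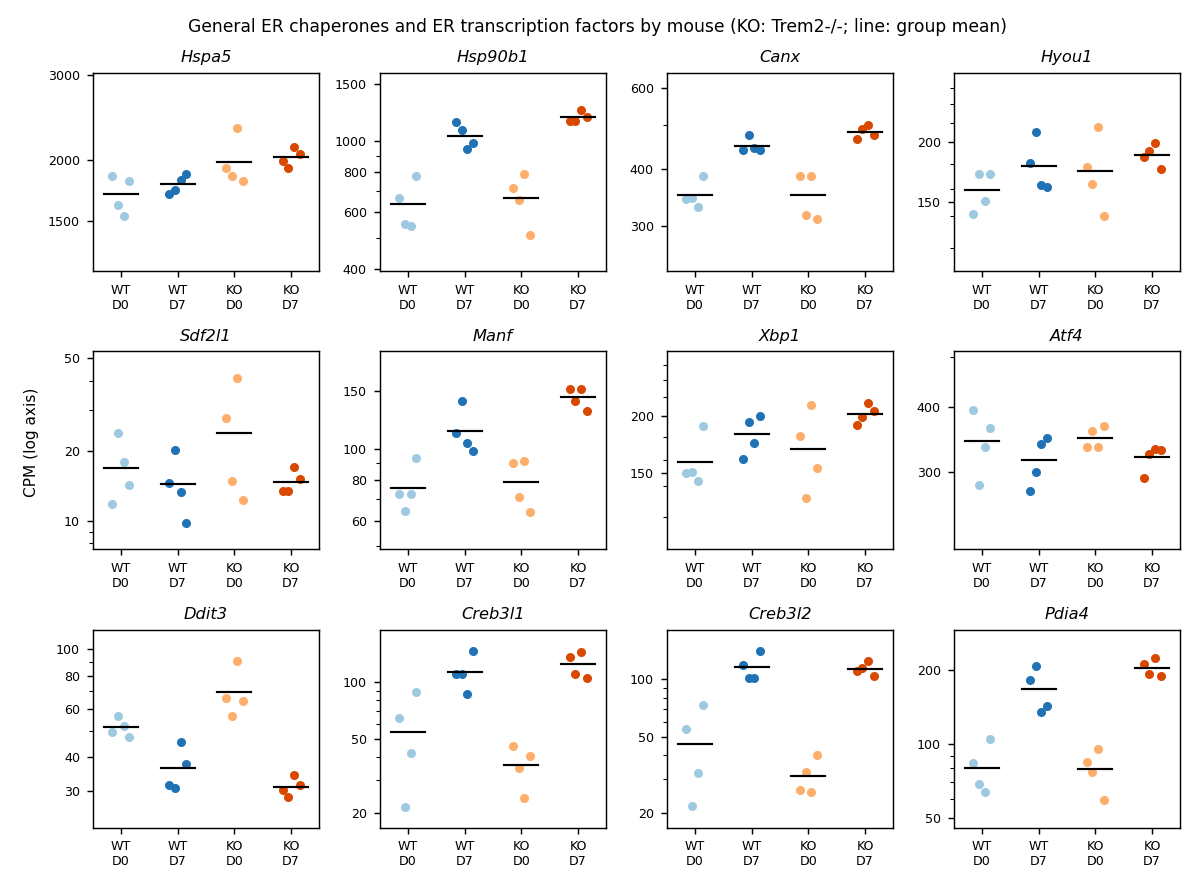
Values in every mouse of 12 general ER chaperones, isomerases and ER transcription factors, in CPM on a log axis, with a line at each group's mean (KO is Trem2-/-). Hspa5, Hyou1, Sdf2l1, Xbp1 and Atf4 lie at similar heights at D0 and D7, Ddit3 is lower at D7, and Creb3l1 and Creb3l2 are higher.

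Outside the cell, Bmp1 removes the C-terminal propeptide of procollagen and Pcolce enhances that cut. Bmp1 (chr14:70474558-70520234) was 159, 48.3, 84.4 and 245 CPM at WT D0 and 486, 520, 294 and 376 CPM at WT D7. It was 105, 104, 49.4 and 118 CPM at Trem2-/- D0 and 642, 525, 508 and 448 CPM at Trem2-/- D7. It rose by 1.85 ± 0.39 (adjusted p = 0.0044) and 2.54 ± 0.39 (adjusted p = 0.00011). Pcolce (chr5:137605103-137613784) went from 271, 62.2, 142 and 371 CPM to 563, 720, 590 and 776 CPM in WT mice. Without Trem2 it went from 149, 138, 68.4 and 154 CPM to 743, 679, 830 and 617 CPM. Both were separate by day, and Pcolce rose by 1.92 ± 0.41 (adjusted p = 0.0045) and 2.54 ± 0.41 (adjusted p = 0.00015). For comparison, Col1a1, a marker of the producing cells and the main client of this machinery, was 6018, 1918, 3714 and 18523 CPM at WT D0 and 29619 to 51035 CPM at WT D7. It rose by 2.85 ± 0.57 in WT and, from 1282 to 3142 CPM at D0 to 36250 to 58146 CPM at D7, by 4.45 ± 0.57 in Trem2-/- mice.

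Other genes of the pathway, from lists chosen with earlier results of these data known, were counted in the same way, against 15.9% of all genes rising and 12.6% falling in WT and 26.0% and 27.2% in Trem2-/- mice. Among 17 other collagen modification genes, 12 rose and 1 fell in WT, and 13 rose and 1 fell in Trem2-/- mice, with median changes of 1.53 and 2.13. Colgalt1, which adds galactose to hydroxylysine, rose by 1.21 ± 0.16 and 1.81 ± 0.16, and Fkbp11, an ER prolyl isomerase, by 1.70 ± 0.31 and 2.82 ± 0.31. Tmem38b, an ER cation channel whose loss impairs collagen synthesis, had a log2 change of -0.63 ± 0.19 in WT and -1.43 ± 0.19 in Trem2-/- mice, and P4htm did not pass (-0.07 and -0.06). Of 22 other genes of translocation and signal peptide processing, 15 rose and 0 fell in WT, and 19 rose and 1 fell in Trem2-/- mice, with medians of 0.45 and 0.80. Stt3a, a catalytic subunit of oligosaccharyltransferase, rose by 0.81 ± 0.12 and 1.15 ± 0.12, and Ssr1 by 0.68 ± 0.10 and 0.95 ± 0.10. Sec11c, of the signal peptidase, did not pass in WT (-0.51) and fell by 0.82 in Trem2-/- mice, while Spcs2 passed in neither (-0.13 and -0.09). In both lists most genes rose.

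The 33 other coat and cargo receptor genes gave 21 higher and 1 lower in WT and 25 higher and 1 lower in Trem2-/- mice, with medians of 0.49 and 0.67. Lman1, a lectin that carries glycoproteins out of the ER, rose by 1.46 ± 0.15 and 1.94 ± 0.15, and Kdelr1 by 0.96 ± 0.13 and 1.38 ± 0.13. Klhl12, an adaptor for large COPII carriers, had a log2 change of -0.53 ± 0.13 in WT and -0.54 ± 0.13 in Trem2-/- mice, and Copg2 passed in neither (-0.25 and -0.42). Of 35 other folding and quality control genes tested, 18 rose and 1 fell in WT, and 22 rose and 2 fell in Trem2-/- mice, with medians of 0.32 and 0.51. The thioredoxin family member Txndc5 rose by 1.61 ± 0.24 and 2.38 ± 0.24, and Dnajc25 by 0.95 ± 0.17 and 1.68 ± 0.17. The ER oxidases went the other way, with log2 changes of -0.62 ± 0.15 and -0.99 ± 0.15 for Ero1lb and of -0.49 ± 0.20 (not passing) and -0.79 ± 0.20 for Ero1l. Of 16 other unfolded protein response genes tested, 4 rose and 0 fell in WT, and 4 rose and 1 fell in Trem2-/- mice, with medians of 0.08 and 0.21. That count of rising genes in Trem2-/- mice was near the 26.0% of all genes that rose. Creb3, a relative of Creb3l1, rose by 0.74 ± 0.10 and 0.94 ± 0.10, and the protease Mbtps1, which activates such factors, by 0.63 ± 0.13 and 0.92 ± 0.13. Ppp1r15a (GADD34) did not pass in WT (-0.27) and fell by 0.51 in Trem2-/- mice, and Atf3 passed in neither (-0.01 and -0.43). Plasma cells, which also have a large ER, had summed levels of 6 markers of 174 to 229 CPM at WT D0, 171 to 231 at WT D7, 125 to 183 at Trem2-/- D0 and 217 to 258 at Trem2-/- D7. The sum hides opposite changes: of the 5 markers tested, 1 rose and 3 fell in WT and 2 rose and 3 fell in Trem2-/- mice, with medians of -0.999 and -1.47.

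Between genotypes, few of the 38 genes were called in any comparison. At D7, 0 genes had an adjusted p under 0.05 in limma, the count also for all 13173 genes, and edgeR's quasi-likelihood test gave 0 of the 38 too, while 2 of the 38 had an unadjusted p under 0.05 in limma. Trem2 itself, lower in every Trem2-/- D7 mouse than in any WT D7 mouse, did not pass the adjusted limma test either. A count of 0 therefore does not show that the genotypes were equal. By the study's rule of an unadjusted p under 0.05 and a log2 change of more than 0.32, 2 genes were higher in Trem2-/- D7 than in WT D7 mice and 0 lower, against 1.18% and 4.53% of all genes. These were Ppib, with a difference of 0.39 ± 0.13 (adjusted p = 0.52), and Manf, with 0.35 ± 0.15 (adjusted p = 0.62). The 4 Trem2-/- D7 values of Ppib were 132 to 150 CPM and the WT D7 values 96.2 to 126 CPM, without overlap, while the Manf values of WT D7 replicate 2 and Trem2-/- D7 replicate 2 were both 140 CPM. Small differences in the same direction were common, with 36 of the 38 means higher in Trem2-/- mice (median difference 0.18, against 0.01 for all genes), the 2 others being Creb3l2 and Ddit3. All Trem2-/- D7 mice were above all WT D7 mice for 10 genes and below for 0, against 3.55% and 4.78% of all genes. The 10 were P4hb, Plod1, Serpinh1, Ppib, Hspa5, Hsp90b1, Dnajc3, Pdia3, Kdelr2 and Kdelr3. The number called was 8, all higher, without WT D7 replicate 2, and 1 without WT D7 replicate 3 or 4 or Trem2-/- D7 replicate 1 or 3. Beside this, the pan-leukocyte sum was 1197 to 1501 in Trem2-/- D7 and 1514 to 3335 in WT D7 mice, and that of collagen-producing cells overlapped, 115538 to 158108 against 86234 to 129919. Their part in the result was not tested.

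At D0, 0 genes had an adjusted p under 0.05 in limma or edgeR, and 2 had an unadjusted p under 0.05. The study's rule called Ddit3 higher in Trem2-/- mice (0.41 ± 0.14, adjusted p = 0.9996) and Fkbp10 lower (-0.92 ± 0.41, adjusted p = 0.9996), against 0.782% of all genes higher and 1.37% lower. The D0 groups overlapped for every one of the 38 genes, where 0.440% and 0.539% of all genes had the genotypes fully apart upward and downward. Fkbp10 was 22.2 to 43.9 CPM in Trem2-/- D0 mice, while WT D0 ran from 23.7 to 178 CPM, so the difference rested on the WT mice with high values. The Fkbp10 call was lost with the 2 D0 groups fitted alone and without WT D0 replicate 1 or 4 or Trem2-/- D0 replicate 1 or 3, and that of Ddit3 without Trem2-/- D0 replicate 3. Without WT D0 replicate 2, the lowest library for most of these genes, 16 were called, 15 of them lower in Trem2-/- mice. The direction over the 38 genes depended on single mice. The median difference was -0.05, with 13 genes higher in Trem2-/- mice. It was 0.06, with 24 higher, without WT D0 replicate 4, the highest library for 33 genes, and -0.20, with 8 higher, without replicate 2. It ranged from -0.12 to -0.01 with any one of the other D0 mice left out. The number called was 4 without WT D0 replicate 3 and 6 without both WT D0 replicates 2 and 4.

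**Figure D5:**
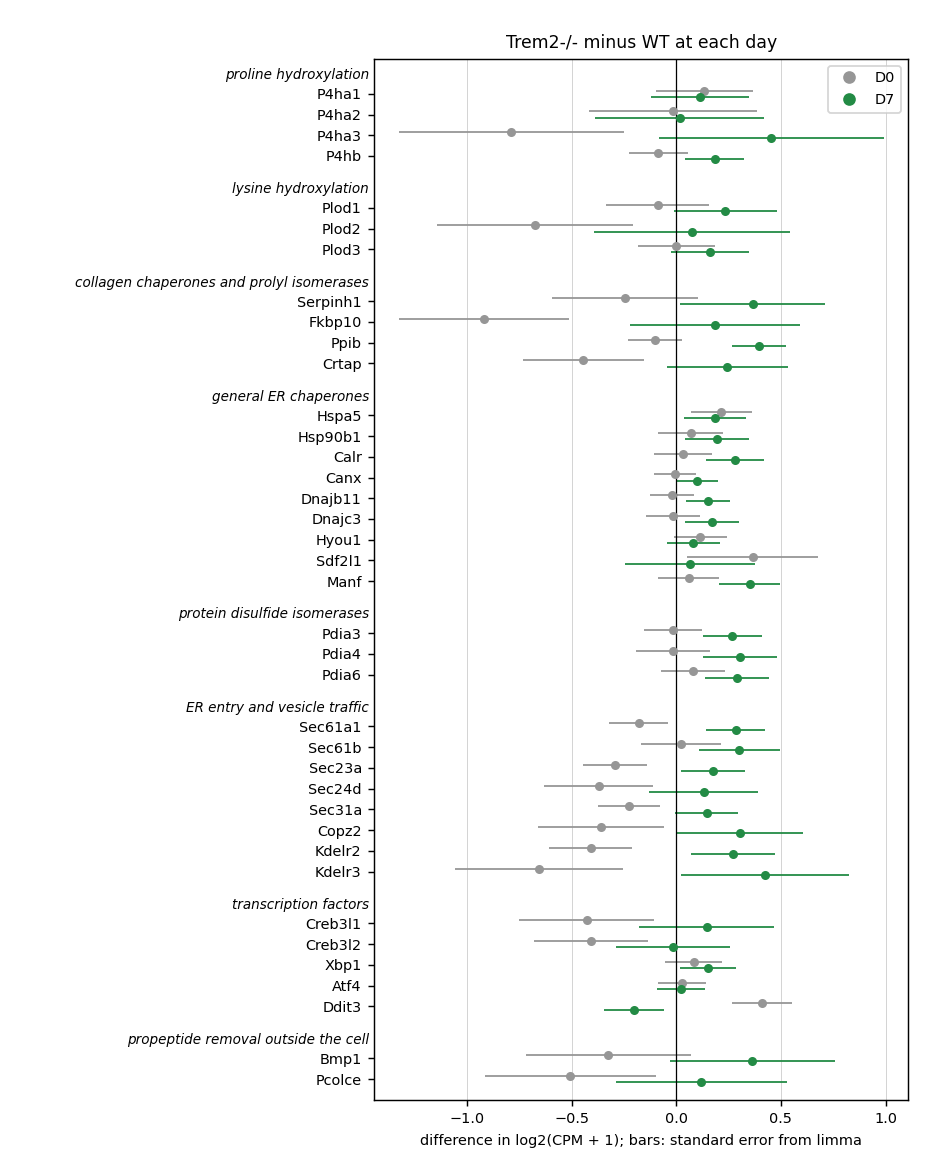
Difference between genotypes (Trem2-/- minus WT) at D0 (grey) and D7 (green) for each of the 38 genes, in log2(CPM + 1) with the standard error from limma (4 mice a group). Nearly all green points lie right of 0 by less than 0.5. The grey points of collagen modifying and folding genes and of traffic genes lie mostly left of 0 with wide bars. Without WT D0 replicate 4 the median of the grey points is 0.06 rather than -0.05.

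Whether the response to injury itself differed was tested by the interaction term. With adjustment 0 of the 38 genes passed in limma, as in edgeR, and 5 had an unadjusted p under 0.05. The study's rule called 4 genes with a larger rise in Trem2-/- mice and 1 with a deeper fall, against 2.77% and 5.02% of all genes. The 4 were Ppib (0.49 ± 0.18, adjusted p = 0.58), Sec61a1 (0.46 ± 0.20, adjusted p = 0.595), Sec23a (0.47 ± 0.21, adjusted p = 0.61) and Kdelr2 (0.68 ± 0.28, adjusted p = 0.58). The fifth was Ddit3 (-0.61 ± 0.20, adjusted p = 0.58). In 32 of the 38 genes the log2 change was higher in Trem2-/- mice (median 0.31, and 0.01 over all genes). The median was 0.18, with 29 genes higher, without WT D0 replicate 4, and 0.44, with 34 higher, without WT D0 replicate 2. These estimates share the WT D0 libraries, where replicates 2 and 4 lie far apart. The number called was 19 without WT D0 replicate 2 (18 with larger rises), 10 without both replicates 2 and 4, and 3 without replicate 4 alone or replicate 1. It was 2 or 3 without WT D7 replicate 3, Trem2-/- D0 replicate 2 or Trem2-/- D7 replicate 1, 2 or 3. Ddit3 was called under all 28 alternatives and Ppib under 27, while Sec23a was called under 13 and Sec61a1 under 18.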

How the data were processed

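RNA-seq libraries of mouse knee joint cells were compared, 4 mice a group, grouped by genotype (WT or Trem2-/-) and condition (uninjured D0 or injured D7) in the labels. The deposited signal is a CPM table: the authors aligned reads to mm10 (GRCm38) by STAR, counted them by featureCounts and scaled the counts by TMM in edgeR. Versions, annotation and strand setting are not given in the sources used here. Of the values, 100% were whole multiples of the value of 1 read (tolerance 0.1), so reads were recovered, 11567073 to 32867818 per library. More reads lower the counting error only.

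Values were tested as log2(CPM + 1) with limma 3.58.1 (eBayes with trend) in R 4.3.3, with all 4 groups in one fit, for the 13173 genes that reached 1 CPM in 4 or more libraries. Fold changes on this scale understate low genes. Calls used a Benjamini-Hochberg adjusted p under 0.05, or the study's rule of p under 0.05 and a log2 change of more than 0.32. The fit was tested on simulated data. edgeR 4.0.16 and voom on the recovered reads, other pseudocounts, filters and scalings, and leaving out mice were alternatives. Labels do not say whether mice shared a cage or day, so p-values measure spread between these mice.

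The members and lists were chosen with earlier results of these data known. Mouse by mouse values are given for the 11 collagen modifying and folding genes and for genes called between genotypes or in the interaction. They are also given for the 2 genes of each other role with the smallest p for D7 vs D0 in WT. Of each pathway list, the 2 genes with the smallest p in each direction are named. Positions and exon lengths are from GENCODE M21 (GRCm38), where all 38 symbols matched, and promoters from RefSeq (GRCm38.p6). Fkbp14, Mia3, Tll2 and Srpr of the pathway lists were not used here, and protein sequences were not analysed here.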

Additional observations from a re-analysis of the deposited data

Results flagged for a closer look

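In each group of 4 mice, a mouse was looked at again where its gap to the nearest other was a larger share of the group's range than Dixon's critical value for 4 samples. Of 152 groups, 7 met this (4.61%), and chance alone gives about 1 in 20. They were P4ha3 in WT D0 replicate 4 (0.861, highest), Canx in WT D7 replicate 2 (0.860, highest), Dnajc3 in WT D7 replicate 3 (0.912, lowest), Sec31a in Trem2-/- D0 replicate 4 (0.876, highest), Copz2 in WT D7 replicate 3 (0.832, lowest), Xbp1 in WT D0 replicate 4 (0.859, highest) and Atf4 in Trem2-/- D7 replicate 1 (0.8292, lowest).

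The change from D0 to D7 differed between genotypes by the interaction test without adjustment for Ppib (0.49 on the log2 scale), Sec61a1 (0.46), Sec23a (0.47), Kdelr2 (0.68) and Ddit3 (-0.61), and for none of the 38 genes after adjustment over all genes tested in limma.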

How the results depend on the processing

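The injury counts held their size: genes with an adjusted p under 0.05 numbered 28 to 32 in WT and 32 to 33 in Trem2-/- mice under other settings, and 29 to 32 and 32 to 34 with a mouse left out. Genotype counts by the study's rule did not. At D7 the count of 2 became 4 with only the groups compared and 0 at a fold over 1.5, and 1 to 8 with a mouse left out. At D0 the count of 2 became 1 with only the groups compared, 7 with edgeR, 1 at a fold over 1.5, 6 without both WT D0 replicates 2 and 4, and 0 to 16 with a mouse left out. For the interaction the count of 5 became 8 with edgeR, 2 at a fold over 1.5, 10 without both WT D0 replicates, and 2 to 19 with a mouse left out. The cause was not tested. No change of a gene called in the main fit reversed, and 23 of 896 WT injury values no longer passed. Genes not called were not followed one by one, and signs of small changes could move. Under quantile normalization 34 of the 38 genes had a higher mean at D7 in each genotype, against 35 in the main fit.

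The labels do not say whether mice with the same replicate number are linked across groups. Deviations of same-numbered mice correlated at -0.509 to 0.406 over 24 pairs (11 over 0.1). Differently numbered mice were not compared, so these values do not settle whether the numbers link mice. With the replicate number as a block, the injury count was 32 in each genotype, the genotype counts by the study's rule 2 and 2, and the interaction count 4, without Sec61a1. The share of P4ha1 in WT mice had an exact permutation p of 0.0286 with no division by length. The share of Kdelr2 among KDEL receptors in Trem2-/- mice, -0.08384 percentage points from D0 to D7, was 1.804 that way, which follows from the change of weights.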
